A study of Mus musculus with 2 samples.

Results

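Interferon-high tumour cells were taken as the barcodes in which at least 3 of 5 interferon-induced genes, Ifit3, Ifit3b, Rsad2, Ifi44 and Cxcl10, had at least 1 unique molecular identifier (UMI, 1 counted mRNA molecule). They made up 73 of 7890 barcodes that passed a filter of at least 500 detected genes and at most 10% mitochondrial UMIs. Of these, 53 were among 4218 barcodes of the cisplatin library and 20 among 3672 of the vehicle library. The cells were chosen by the measured UMIs of these 5 genes, so their values below are a description, and so are those of every other gene, since all were read from the barcodes that the rule picked.

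The cells came from lung tumours of a mouse model of small cell lung cancer, a fast-growing neuroendocrine cancer, and live GFP-positive cells had been sorted before droplet capture on the 10x Genomics platform. Mice of both groups, of mixed strain, carried floxed alleles of tumour suppressor genes that include Rb1 and Trp53, with a tamoxifen-inducible Cre recombinase (CreER) at the locus of CGRP, a neuroendocrine peptide encoded by Calca, and the Rosa26 mTmG reporter, which turns GFP on in cells where Cre has acted. Treatment was cisplatin, which crosslinks DNA, given as 5 mg per kg of body weight once in 4 days over 2 weeks, and the vehicle was saline. Since the library preparation text speaks of cisplatin/etoposide, whether etoposide was also given is not settled by the labels, and neither the age nor the number of animals is given in the sources used here. There was 1 library per treatment, so no difference between cisplatin and vehicle, or between these cells and the others, has a replicate check, and none was tested. Intervals given below are exact 95% intervals and cover counting error only.

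Type I interferons bind the Ifnar1 and Ifnar2 receptor chains, and the kinases Jak1 and Tyk2 then act on transcription factors. Stat2 and Irf9 are among those that bind interferon-stimulated response elements in the promoters of many genes. Interferon gamma acts through Ifngr1 and Ifngr2. The products of the induced genes block viral translation and replication, sense foreign or misplaced nucleic acids, and load peptides on MHC class I for cytotoxic T cells, a pathway that is often weakly expressed in small cell lung cancer.

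The promoters of 5 genes, Isg15, Ifit1, Ifit3, Ifit3b and B2m, are shown as examples picked because they carry the response element in letters. The core of the element, GAAA followed by any 2 bases and GAAA again, was searched on both strands of RefSeq promoter windows (GRCm38.p6) that run from 250 bases before to 50 after each gene's start. It was found in 3.99% of all 27025 genes with a window. The 250 bases before the start are printed 5′ to 3′ on the gene's strand, with each match in capitals, for Isg15 (chr4:156200819-156201068, minus strand), Ifit1 (chr19:34640639-34640888, plus strand), Ifit3 (chr19:34583279-34583528, plus strand), Ifit3b (chr19:34607707-34607956, plus strand) and B2m (chr2:122147437-122147686, plus strand).
Isg15: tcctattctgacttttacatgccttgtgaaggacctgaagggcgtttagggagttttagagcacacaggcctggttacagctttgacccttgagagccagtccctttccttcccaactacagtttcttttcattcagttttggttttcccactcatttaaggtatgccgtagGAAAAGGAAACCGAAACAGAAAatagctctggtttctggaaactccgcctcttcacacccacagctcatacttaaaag
Ifit1: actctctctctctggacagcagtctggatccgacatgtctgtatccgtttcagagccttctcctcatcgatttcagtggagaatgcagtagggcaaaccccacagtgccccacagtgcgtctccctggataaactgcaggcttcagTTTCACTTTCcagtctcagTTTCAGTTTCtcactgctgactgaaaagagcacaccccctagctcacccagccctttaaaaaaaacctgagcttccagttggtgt
Ifit3: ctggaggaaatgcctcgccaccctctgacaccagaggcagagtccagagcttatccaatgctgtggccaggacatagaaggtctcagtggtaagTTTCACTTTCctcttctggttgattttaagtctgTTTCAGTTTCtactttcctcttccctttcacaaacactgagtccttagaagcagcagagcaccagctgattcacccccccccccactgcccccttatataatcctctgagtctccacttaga
Ifit3b: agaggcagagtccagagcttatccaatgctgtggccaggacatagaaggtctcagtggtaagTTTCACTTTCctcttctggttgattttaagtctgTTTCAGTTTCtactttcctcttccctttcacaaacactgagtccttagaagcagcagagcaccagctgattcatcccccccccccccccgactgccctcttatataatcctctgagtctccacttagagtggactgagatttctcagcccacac
B2m: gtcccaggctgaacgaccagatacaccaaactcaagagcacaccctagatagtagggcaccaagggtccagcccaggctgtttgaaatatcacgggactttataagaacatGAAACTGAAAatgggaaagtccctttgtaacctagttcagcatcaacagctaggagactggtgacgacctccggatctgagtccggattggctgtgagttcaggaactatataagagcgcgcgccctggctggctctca
In Isg15, 3 matches overlap in 1 run that begins 78 bases before the start. Ifit1 has 2 matches, which begin 104 and 85 bases before it, both on the strand opposite to the gene. Ifit3 and Ifit3b carry the same pair of matches, at 156 and 122 bases before the start in Ifit3 and at 188 and 154 in Ifit3b. B2m has 1 match, 139 bases before its start. Of the 5 rule genes, 4 held the motif (the exception was Ifi44). Of the 68 other genes that were at least 2-fold higher in the interferon-high barcodes of both libraries, described below, 58 had a RefSeq window and 21 of these held the motif (36.2%). A match is a description of the letters and does not show binding.

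Ifit3 and Ifit3b lie in the Ifit cluster of chromosome 19 (GENCODE M21, GRCm38), at chr19:34583531-34588731 and chr19:34607970-34613401, and encode related cytoplasmic RNA-binding proteins. Their longest coding transcripts are 81.2% identical over their length and 44.2% over the last 300 bases, and whether reads were split between the copies was not tested. Counted as 1 gene, with 3 or more of the then 4 genes required, they left 48 interferon-high barcodes in the cisplatin library and 16 in the vehicle library.

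The interferon-high cells were 1.26% of the cisplatin library (0.943 to 1.64%) and 0.545% of the vehicle library (0.333 to 0.840%). Interferon-high barcodes were deeper than the others, with a median of 7653 UMIs against 5929 in the cisplatin library and 10685.5 against 8199 in the vehicle library, and a deeper barcode meets the rule more easily. After every barcode was thinned to 3000 UMIs, which left out 361 shallower barcodes of the cisplatin library and 146 of the vehicle library, 32 of 3857 cisplatin barcodes met the rule (0.830%; 0.568 to 1.17%) and 8 of 3526 vehicle barcodes did (0.227%; 0.0980 to 0.447%). The share was higher in the cisplatin library with and without thinning. With 1 library each, treatment and library cannot be told apart.

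The number of rule genes per barcode fell off steeply. In the cisplatin library 3641, 454, 70, 21, 19 and 13 barcodes held 0, 1, 2, 3, 4 and 5 rule genes, and in the vehicle library 3311, 310, 31, 13, 5 and 2 did. Just outside the threshold, the 70 cisplatin and 31 vehicle barcodes with 2 rule genes had a median of 9202 and 11207 UMIs. Just inside it, the 21 cisplatin and 13 vehicle barcodes with 3 had 7302 and 10194. No barcode sequence of an interferon-high cell recurred in the other library, while 23 kept barcodes were shared by the libraries.

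**Figure D1:**
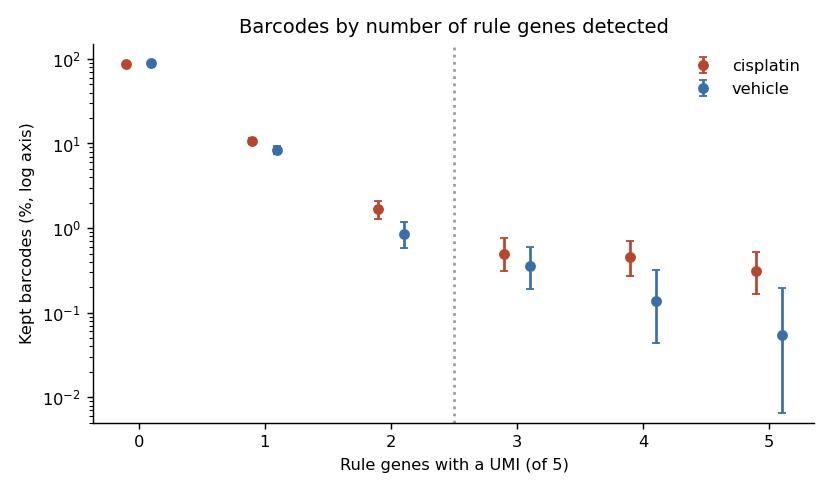
Share of kept barcodes (percent, log axis) by the number of the 5 rule genes with a UMI, in the cisplatin library (red) and the vehicle library (blue), with exact 95% binomial intervals. Barcodes right of the dotted line are the interferon-high cells, 53 of 4218 in cisplatin and 20 of 3672 in vehicle.

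The 5 rule genes were not equally concentrated in the chosen cells. Ifit3b, Ifit3 and the radical-SAM antiviral enzyme viperin (Rsad2) had 86.3%, 80.7% and 46.5% of their cisplatin-library UMIs in the 53 interferon-high barcodes. In the vehicle library 96.2%, 65.6% and 25.9% lay in the 20 interferon-high barcodes. Ifi44, an interferon-induced cytoplasmic protein, had 40.8% of its UMIs in the chosen cells in cisplatin and 25.1% in vehicle. Rsad2 was the rule gene most often detected in cisplatin, in 51 of 53 interferon-high barcodes, and Ifi44 in vehicle, in 18 of 20.

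Cxcl10, the chemokine that draws Cxcr3-bearing T cells, was the least shared of the 5. It was detected in 24 of 53 interferon-high barcodes of the cisplatin library and in 3 of 20 of the vehicle library. A single barcode carried 105 of the 256 UMIs in cisplatin and another 32 of the 39 in vehicle. The barcode with most Cxcl10 in the cisplatin library, with 249 UMIs, was not interferon-high. It had 2 rule genes, 3 UMIs of Isg15 and 54 of Cxcl1, a neutrophil chemokine, of 23427 in all. Ccl2, a monocyte chemokine, had 71 UMIs in 9 interferon-high barcodes of the cisplatin library, and all 9 also held Cxcl10. In the vehicle library 1 interferon-high barcode held Ccl2, with 4 UMIs. Ccl2 stood at 169 CPM (UMIs per 1000000 UMIs of the summed barcodes) in interferon-high and 12.7 CPM in other barcodes of the cisplatin library, and at 16.8 and 2.74 CPM in the vehicle library.

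Isg15, a ubiquitin-like protein that is attached to other proteins, was among the genes furthest above the other barcodes. Its lowest, median and highest levels were 0, 1749 and 7088 CPM over the 53 interferon-high barcodes of the cisplatin library and 35.8, 766 and 3552 CPM over the 20 of the vehicle library. The median of the other barcodes was 0 CPM in both libraries, although single ones reached 2839 CPM in cisplatin and 2818 CPM in vehicle, so the groups overlap. A UMI of Isg15 was found in 50 of 53 and 20 of 20 interferon-high barcodes, against 12.4% of the other cisplatin and 10.6% of the other vehicle barcodes. At 3000 UMIs per barcode these shares were 88.5% of interferon-high and 7.10% of other barcodes in cisplatin and 18 of 20 and 4.48% in vehicle. The other barcodes are the background for such shares, since every cell type can express these genes. Summed over barcodes, Isg15 stood at 2276 CPM (2134 to 2425) in interferon-high and 42.9 CPM in other cisplatin barcodes, and at 973 CPM (852 to 1107) and 28.5 CPM in vehicle.

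Ifit1, which binds viral RNA caps, spanned 0 to 13114 CPM, with a median of 2356 CPM, over the interferon-high barcodes of the cisplatin library, and 0 to 4534 CPM, with a median of 543 CPM, over those of the vehicle library. Other barcodes had a median of 0 CPM and reached 12171 CPM in cisplatin and 2629 CPM in vehicle. Its summed level was 2919 CPM in interferon-high and 73.3 CPM in other cisplatin barcodes, and 885 and 41.0 CPM in vehicle. Isg15 (chr4:156199424-156200818) and Ifit1 (chr19:34640871-34650009) are both protein-coding.

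A gene counted as measured where its mean of the level in interferon-high and in other barcodes was at least 50 CPM, and as higher or lower where the levels with 1 CPM added differed at least 2-fold. In the cisplatin library 114 of 3430 genes were higher in the interferon-high cells (3.32%) and 34 lower (0.991%). In the vehicle library 152 of 3764 were higher (4.04%) and 33 lower (0.877%). These counts include the 5 rule genes. Without the deepest interferon-high barcode the vehicle library had 105 higher genes. The median log2 ratio over all measured genes was -0.02 in cisplatin and 0.00 in vehicle. Without the rule genes, 3129 genes were measured in both libraries, of which 92 were higher in cisplatin and 102 in vehicle. There were 68 higher in both, which is 73.9% of the cisplatin and 66.7% of the vehicle genes. A gene that is low in other cells passes the floor only if it is high in the chosen ones. Among the genes at 50 CPM or more in the other barcodes, 38 of 3371 were higher (1.13%) and 50 lower (1.48%) in cisplatin, and 58 of 3697 higher (1.57%) and 83 lower (2.25%) in vehicle.

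The 12 highest mean ratios of both libraries belonged to Ifi47, Isg15, Ifit1, Oasl1, Gbp3, Oasl2, Apol9a, Gbp7, AW112010, Zbp1, Irf7 and Phf11d. Apol9a has a near-identical copy, Apol9b, so its reads may have been split. Ifi47, an interferon-inducible GTPase, had 283 CPM in interferon-high and 4.78 CPM in other cisplatin barcodes, and 185 and 3.37 CPM in vehicle. Oasl1 and Oasl2, relatives of the oligoadenylate synthetases, stood 5.17 and 4.93 above the other barcodes on the log2 scale in cisplatin, and 4.29 and 4.18 in vehicle. Zbp1, a sensor of Z-form nucleic acids that can trigger necroptosis, had 214 against 10.8 CPM in cisplatin and 235 against 16.6 CPM in vehicle. AW112010 was carried by few barcodes. It was detected in 21 of 53 interferon-high barcodes of the cisplatin library, 1 of which held 47.7% of its UMIs, and in 8 of 20 of the vehicle library, 1 of which held 59.3%.

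**Figure D2:**
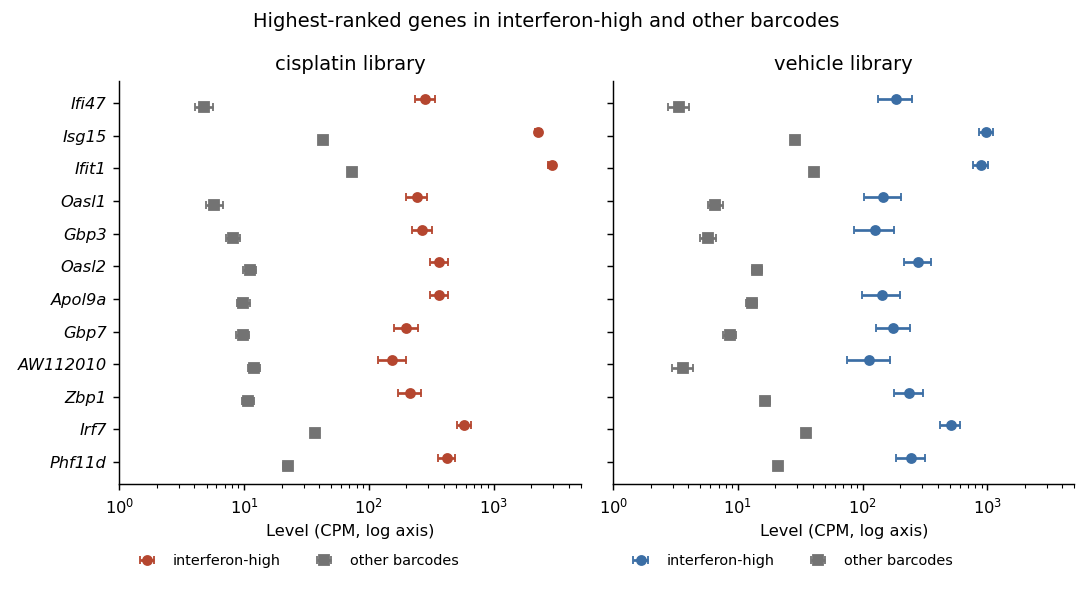
Levels (CPM, log axis) of the 12 genes with the highest mean ratio, in interferon-high barcodes (coloured circles, placed above) and other barcodes (grey squares), in the cisplatin library (left) and the vehicle library (right), with exact 95% Poisson intervals. Each gene is higher in interferon-high barcodes of both libraries, with Isg15 at 2276 CPM in cisplatin and 973 CPM in vehicle.

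The antiviral effector list, 72 genes of the matrix without the rule genes, gave the broadest difference. Counting every gene of the list, 64 were above the other barcodes in cisplatin and 65 in vehicle, of 68 with any UMI in each library. Over all genes with any UMI the median log2 ratio was -0.13 in each library, so fewer were above the other barcodes than not. A gene with few UMIs in the other barcodes and none in the interferon-high cells counts as below through depth alone. That median is therefore a weak background for these counts. The share of all genes above the other barcodes is not given here, so such counts, also those for the lists below, describe direction only. In the cisplatin library 39 were measured and 36 were higher, and in the vehicle library 32 were measured and 30 were higher. None was lower in either library. Of the few already at 50 CPM or more in the other barcodes, 8 of 11 were higher in cisplatin and 7 of 9 in vehicle. The median log2 ratio of the measured genes of the list was 3.26 in cisplatin and 2.55 in vehicle, beside -0.02 and 0.00 for all measured genes. Most of these passed the floor through the interferon-high cells, which raises the median. Over the list genes already at 50 CPM or more in the other barcodes it was 2.35 in cisplatin and 1.48 in vehicle. All genes at that level had a median of -0.06 in each library. Ifitm3, which blocks viral entry, was the most abundant named effector, with 5402 CPM in interferon-high and 751 CPM in other cisplatin barcodes and 3797 and 694 CPM in vehicle. Its neighbour in the same family, Ifitm2, had 548 and 542 CPM in cisplatin and 394 and 379 CPM in vehicle. Bst2 (tetherin), which holds budding virus at the cell surface, had 814 against 48.2 CPM in cisplatin and 440.5 against 39.9 CPM in vehicle. Ifi27, widely used as an interferon marker in human blood, stood at 440.5 against 351 CPM in cisplatin and 520.2 against 384 CPM in vehicle, below the 2-fold limit in both.

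Effector transcripts took a median of 2.58% of a barcode's UMIs in the interferon-high cells of the cisplatin library, with a lowest of 0.903% and a highest of 5.07%. In the vehicle library the median was 1.70%, the lowest 0.165% and the highest 3.99%. Other barcodes had medians of 0.258% in cisplatin and 0.275% in vehicle and reached 2.70% and 2.69%. The 99th percentile of the other barcodes, 1.56% in cisplatin and 1.48% in vehicle, was passed by 45 of 53 and 11 of 20 interferon-high barcodes. At full depth the list's summed level increased with the rule genes detected. In the cisplatin library it was 3006, 4166, 8492, 21025, 23823 and 27606 CPM at 0, 1, 2, 3, 4 and 5 rule genes, and in the vehicle library it was 3428, 5212, 9293, 11901, 22149 and 29832 CPM. The vehicle value at 3 rule genes was 14082 CPM without its deepest barcode, described below, and that at 5 rests on 2 barcodes. At 3000 UMIs per barcode the cisplatin levels at 2, 3, 4 and 5 rule genes were 18641, 25167, 27042 and 22750 CPM, over 26, 20, 8 and 4 barcodes. The vehicle levels at 2, 3 and 4 were then 14889, 22667 and 26667 CPM, over 9, 4 and 4 barcodes. At equal depth the level increased between 2 and 3 rule genes in both libraries.

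**Figure D3:**
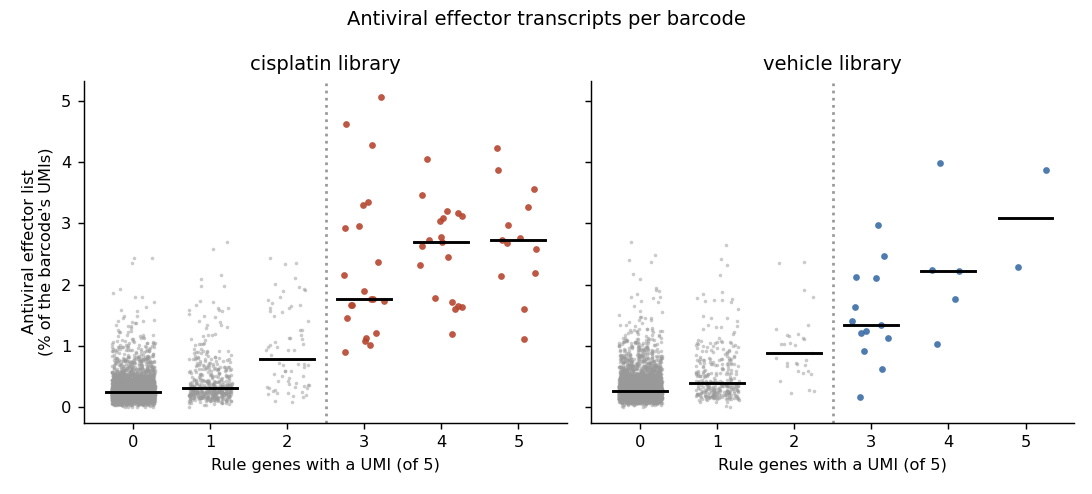
Share of each barcode's UMIs from the antiviral effector list (percent) by the number of rule genes detected, in the cisplatin library (left) and the vehicle library (right). Points are barcodes, coloured where interferon-high, and black lines are medians, which are 1.77%, 2.70% and 2.73% at 3, 4 and 5 rule genes in cisplatin and 1.33%, 2.22% and 3.08% in vehicle.

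The lowest vehicle barcode went against its label. It was the deepest interferon-high barcode of that library, with 27898 UMIs, and met the rule with 5 UMIs of Rsad2, 6 of Cxcl10 and 1 of Ifit3. It held 1 UMI of Isg15 and none of Ifit1 or Irf7. It was the only interferon-high barcode of either library whose effector share lay at or below the median of the other barcodes. It also held 471 UMIs of 20 G1/S and replication genes, with 79 of the 93 Ccne2 UMIs and 35 of the 58 Mcm3 UMIs of all interferon-high vehicle barcodes. The deepest interferon-high barcode of the cisplatin library, with 16331 UMIs, held 4 rule genes, 21 UMIs of Isg15 and 26 of Ifit1.

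Several genes that carry or dampen the interferon signal, Irf7, Irf9, Stat2 and Usp18 among them, stood above the other cells in both libraries. For 3 of the 4 receptor genes looked at no difference was detectable. Irf7, which drives interferon alpha genes, had a median of 634 CPM over the interferon-high barcodes of the cisplatin library (0 to 1901) and 488 CPM over those of the vehicle library (0 to 2253), with medians of 0 in the other barcodes of both. Irf9 was at 179 against 22.6 CPM in cisplatin and 113 against 40.0 CPM in vehicle. Stat2 was below the floor, at 88.1 (62.0 to 121) against 6.2 CPM in cisplatin and 79.7 (48.0 to 124) against 11.5 CPM in vehicle. Usp18, which removes Isg15 from proteins and dampens the type I receptor, had 1017 against 57.1 CPM in cisplatin and 453 against 41.3 CPM in vehicle. Over the list of 21 receptor and signalling genes, 9 were measured and 5 higher in cisplatin, and 11 were measured and 6 higher in vehicle, with none lower and medians of 1.09 and 1.03. Of those at 50 CPM or more in the other barcodes, 2 of 6 were higher in cisplatin and 0 of 4 in vehicle, with medians of 0.52 and -0.11.

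Ifnar1 had 2 UMIs in the interferon-high cells of the cisplatin library, which is 4.76 CPM (0.577 to 17.2) against 14.2 CPM in other barcodes, and 4 in those of the vehicle library, 16.8 CPM (4.57 to 43.0) against 19.7 CPM. Ifnar2 was at 23.8 (11.4 to 43.8) against 26.4 CPM in cisplatin and 33.6 (14.5 to 66.1) against 19.1 CPM in vehicle. Ifngr1 was at 38.1 (21.8 to 61.9) against 34.6 CPM in cisplatin and 67.1 (38.4 to 109) against 39.4 CPM in vehicle. The intervals of these 3 receptor genes hold the level of the other cells in both libraries, so a difference was not detectable at this depth. Ifngr2 lay above the other cells in both, at 50 (31.0 to 76.4) against 19.2 CPM in cisplatin and 37.8 (17.3 to 71.7) against 15.1 CPM in vehicle. No interferon-high barcode held a UMI of any of 21 interferon genes, Ifnb1 and the interferon alpha genes included, which allows up to 7.14 CPM in cisplatin and 12.6 CPM in vehicle over the list. The other barcodes held 6 such UMIs in cisplatin and 8 in vehicle.

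Of the nucleic acid sensors with any UMI, 11 of 12 were above the other barcodes in cisplatin and 8 of 14 in vehicle. The vehicle count is close to an even split, but 4 of the 15 listed genes had no UMI in the interferon-high vehicle barcodes. The list summed to 900 (812 to 995) against 150 CPM in cisplatin and 776 (668 to 896) against 209 CPM in vehicle. The 4 measured in cisplatin and the 3 in vehicle were below 50 CPM in the other barcodes and passed the floor through the interferon-high cells. Ifih1 (MDA5), which senses long double-stranded RNA, was at 276 against 27.7 CPM in cisplatin and 138 against 41.3 CPM in vehicle. Ddx58 (RIG-I), which senses short double-stranded RNA ends, was at 102 against 11.5 CPM in cisplatin and 134 against 14.6 CPM in vehicle. Among 12 guanylate binding proteins and immunity-related GTPases, 12 were above the other barcodes in cisplatin and 11 in vehicle, and the 4 measured in each library also passed the floor through the interferon-high cells. Irgm1 had 367 against 23.7 CPM in cisplatin and 168 against 17.3 CPM in vehicle. Gbp3 had 269 against 8.18 CPM in cisplatin and 126 against 5.74 CPM in vehicle.

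Antigen presentation genes were higher as well, by a smaller factor. Of 21 MHC class I genes, 17 were measured in each library. There were 13 higher in cisplatin and 14 in vehicle, none lower, with median log2 ratios of 1.61 and 1.82. Of those at 50 CPM or more in the other barcodes, 5 of 9 were higher in cisplatin and 9 of 12 in vehicle. B2m, the invariant light chain, had a lowest, median and highest level of 0, 3848 and 15760 CPM over the interferon-high barcodes of the cisplatin library and 1001, 2378 and 10292 CPM over those of the vehicle library. The medians of the other barcodes were 846.5 and 515 CPM, and their highest 26474 and 10255 CPM, so the ranges overlap throughout. Summed B2m was 4774 against 1563 CPM in cisplatin and 3075 against 868 CPM in vehicle. The heavy chain H2-K1 was at 1229 against 619 CPM in cisplatin, a log2 ratio of 0.99 that misses the limit, and at 1649 against 541 CPM in vehicle, a ratio of 1.61. H2-D1 missed it in both, at 3081 against 1722 CPM in cisplatin and 2509 against 1346 CPM in vehicle. The peptide transporter Tap1 was at 117 against 19.5 CPM in cisplatin and 168 against 31.6 CPM in vehicle. Psmb8, an immunoproteasome subunit, was at 533 against 115 CPM in cisplatin and 474 against 115 CPM in vehicle. The 6 MHC class II genes summed to 4.76 against 26.1 CPM in cisplatin and 130 against 10.3 CPM in vehicle, where the value fell to 4.42 CPM without the 1 interferon-high barcode that held markers of another cell type.

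**Figure D4:**
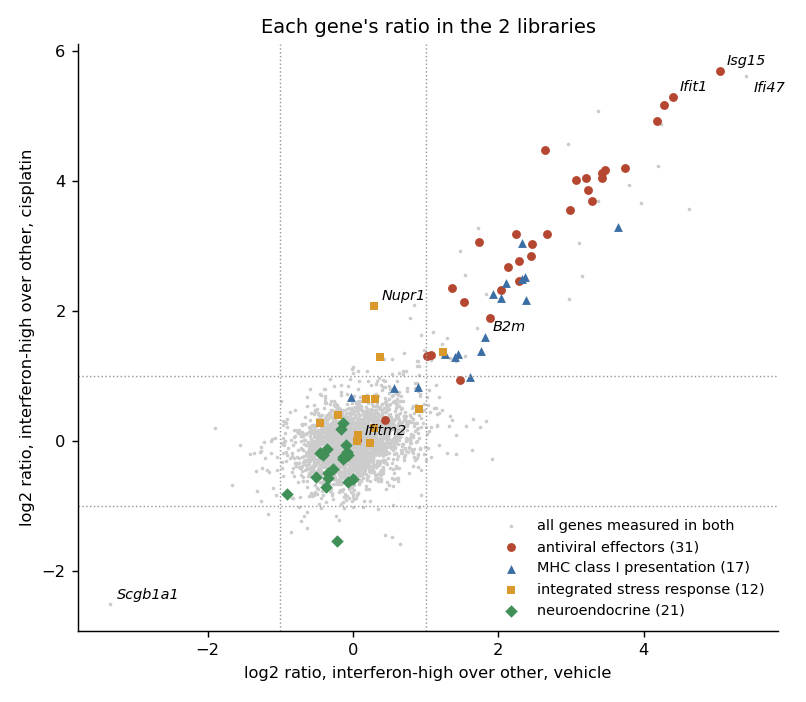
Log2 ratio of interferon-high over other barcodes for each of the 3129 genes measured in both libraries, without the rule genes, in cisplatin (vertical axis) and vehicle (horizontal axis). Coloured symbols are 4 gene lists, with their numbers of genes in the key, and dotted lines mark the 2-fold limits. Antiviral effectors and MHC class I genes lie mostly in the upper right. Neuroendocrine genes lie within the 2-fold limits except Scg2, at -1.53 in cisplatin.

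The interferon-high cells carried neuroendocrine markers. All 53 cisplatin and all 20 vehicle interferon-high barcodes held at least 8 of 24 neuroendocrine markers, as did 99.2% of the other barcodes of each library. The medians were 17 and 16.5 markers against 16 and 17 in the other barcodes. These numbers were not matched for depth, and the interferon-high barcodes were deeper. Chga (chromogranin A), a secretory granule protein, was at 612 against 710 CPM in cisplatin and 344 against 366 CPM in vehicle. Epcam, an epithelial adhesion protein, was at 2074 against 1809 CPM in cisplatin and 1452 against 1623 CPM in vehicle. Of the 24 genes, 22 were measured in cisplatin, of which 2 were lower and none higher. The 2 were Scg2, at 652 against 1887 CPM, and Pcsk2, at 245 against 748 CPM, and Scg2 is also on the delta-like list below. In vehicle 21 were measured and none passed the limit. The medians were -0.26 and -0.16. Counting every marker, 4 of 24 were above the other barcodes in cisplatin and 2 in vehicle. The list summed to 13505 (13156 to 13861) against 17519 CPM in cisplatin and 10291 (9888 to 10706.5) against 12211 CPM in vehicle. Both sums lay below the other barcodes, and without the deepest vehicle barcode the vehicle sum was 11270 CPM. Rb1 and Trp53 were still counted, Trp53 at 114 against 81.0 CPM in cisplatin and 92.3 against 71.4 CPM in vehicle, but whether the counted reads lie in the deleted parts is not given in the sources used here, so the values are no check of the deletion.

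Markers of other cell types were scarce in these cells. Ptprc (CD45), the pan-leukocyte surface protein, had no UMI in any interferon-high barcode, which allows up to 7.14 CPM in cisplatin and 12.6 CPM in vehicle. Of 10 leukocyte markers, 8 were at 0 in each library, and the list summed to 40.5 (23.6 to 64.8) against 42.4 CPM in cisplatin and 29.4 (11.8 to 60.5) against 86.4 CPM in vehicle. The 14 macrophage or monocyte markers summed to 19.05 against 25.9 CPM in cisplatin and 21.0 against 25.1 CPM in vehicle. The 12 T or NK cell markers summed to 31.0 (16.5 to 52.9) against 8.21 CPM in cisplatin, with 11 of the 13 UMIs from Gzma, a granule protease, and to 8.39 against 19.9 CPM in vehicle. The 8 fibroblast markers summed to 78.6 against 21.6 CPM in cisplatin and 96.5 against 43.4 CPM in vehicle, nearly all of it the proteoglycan Dcn, at 76.2 and 92.3 CPM. Without the deepest vehicle barcode the vehicle sum was 38.0 CPM, from 8 UMIs, which is below the other barcodes, and Dcn was at 33.3 against 42.3 CPM. The part of the Gzma and Dcn transcripts in the other results was not tested. Endothelial markers summed to 16.7 against 14.1 CPM in cisplatin and 210 against 18.1 CPM in vehicle. The vehicle value fell to 8.83 CPM without 1 barcode, which held all 8 endothelial and 17 neuroendocrine markers. Besides it, 1 cisplatin barcode held at least 2 markers of another type. Without these barcodes the effector median was 3.30 in cisplatin and 2.57 in vehicle.

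**Figure D5:**
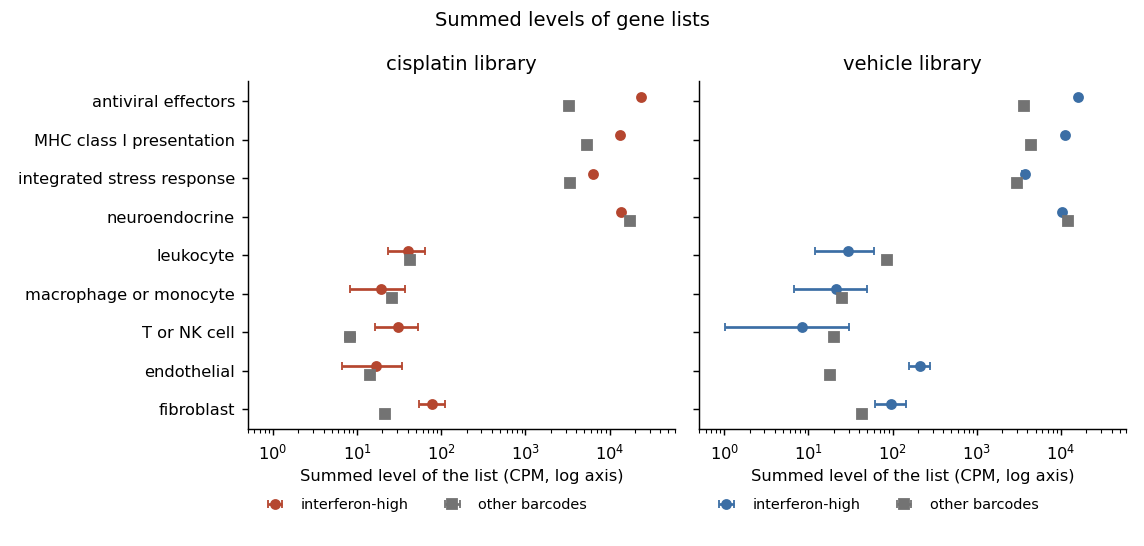
Summed level (CPM, log axis) of 9 gene lists in interferon-high barcodes (coloured circles, placed above) and other barcodes (grey squares) of the cisplatin library (left) and the vehicle library (right), with exact 95% Poisson intervals. Antiviral effectors reach 23895 CPM in interferon-high against 3301 CPM in other cisplatin barcodes and 15967 against 3686 CPM in vehicle, while most lists of other cell types stay below 100 CPM; the endothelial value of the vehicle library, 210 CPM, comes nearly all from 1 barcode.

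Genes of delta-like endocrine cells, a second endocrine state seen mostly in the cisplatin library, were lower in its interferon-high cells. At least 3 of 6 such genes were detected in 3 of 53 interferon-high barcodes of the cisplatin library (5.66%; 1.18 to 15.7%) and in 816 of 4165 others (19.6%; 18.4 to 20.8%). At 3000 UMIs per barcode the shares were 1 of 52 and 622 of 3805. Read the other way, 3 of 819 delta-marked barcodes were interferon-high (0.366%; 0.0756 to 1.07%), and 50 of 3399 remaining ones were (1.47%; 1.09 to 1.93%). Of 10 genes on the list, 6 were measured in cisplatin, of which 5 were lower. Scg2, a granin, was at 652 against 1887 CPM, and Sst (somatostatin) at 38.1 against 246 CPM. In the vehicle library no interferon-high barcode of 20 and 17 of 3652 others were delta-marked, and 1 list gene was measured, which did not pass the limit.

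Stress genes differed less. Of 16 genes of the integrated stress response, which slows translation under amino acid or protein folding stress, 13 were measured and 4 higher in cisplatin, and 12 were measured and 1 higher in vehicle, with medians of 0.49 and 0.26. Ddit3 (CHOP) was higher in both, at 248 against 95.5 CPM in cisplatin and 193 against 81.0 CPM in vehicle. Nupr1 was at 3036 against 715 CPM in cisplatin, where 1 barcode held 329 of its 1275 UMIs, and at 747 against 611 CPM in vehicle. No measured p53 target passed the limit, of 5 in cisplatin and 6 in vehicle. The cell cycle inhibitor Cdkn1a was at 602 against 457 CPM in cisplatin and 734 against 424 CPM in vehicle, where the log2 ratio was 0.13 without the deepest barcode. Of 14 immediate early genes measured in each library none was higher, and Hspa1a, a heat shock protein, was lower in cisplatin, at 164 against 457 CPM. In vehicle Hspa1a went the other way, at 231 (174 to 300) against 158 CPM, within the 2-fold limit.

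No gene of the 2 cell cycle lists was at least 2-fold higher once the deepest interferon-high barcode of each library was left out. Of 14 measured G1/S and replication genes none passed the limit in cisplatin, and 6 of 16 were higher in vehicle. Without the deepest vehicle barcode none of 15 was higher and 1 was lower, and the median was -0.05, against 0.82 with it. Of the G2 and mitosis genes 1 of 18, the kinesin Cenpe, was higher in cisplatin, at 126 against 60.5 CPM, and none of 14 in vehicle. Without the deepest cisplatin barcode Cenpe was at 119 CPM, a log2 ratio of 0.96 that misses the limit. Barcodes with at least 5 mitotic UMIs after thinning made up 42.3% (28.7 to 56.8%) of the interferon-high and 30.8% of the other cisplatin barcodes, and 30.0% (11.9 to 54.3%) and 23.8% of the vehicle barcodes, and both intervals hold the share of the other cells. At full depth 25 of 53 interferon-high (47.2%, 33.3 to 61.4%) and 29.8% of the other cisplatin barcodes had at least 10 mitotic UMIs. This interval lies above the other cells. In vehicle 7 of 20 (15.4 to 59.2%) and 27.3% did, and the interval holds the other cells. Deeper barcodes reach this count more easily. Of all 20 G2 and mitosis genes 19 were above the other barcodes in cisplatin and 11 in vehicle. The medians of the measured ones were 0.55 and 0.01. The list summed to 3819 (3634 to 4011) against 2805 CPM in cisplatin and 2681 (2477 to 2897) against 2847 CPM in vehicle. Without the deepest cisplatin barcode the sum was 3654 CPM.

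The genes lowest in both libraries were Scgb1a1, Acaa2, Serpine2, Ckb, Rorb, Rgs17, Enho and Gpx3. Scgb1a1, the club cell secretory protein, was at 357 against 2027 CPM in cisplatin and 71.3 against 732 CPM in vehicle. In cisplatin 77.4% of the UMIs of the other barcodes came from 1 barcode, and without the highest barcode of each library the others stood at 459 CPM in cisplatin and 456 CPM in vehicle. Serpine2, a secreted protease inhibitor, was the only other gene of the 8 past the limit in both, at 69.0 (46.2 to 99.2) against 150.1 CPM in cisplatin and 42.0 (20.1 to 77.2) against 95.4 CPM in vehicle. Iapp (islet amyloid polypeptide), named here after its values were seen, stood out among the genes higher in both libraries. It was at 360 against 78.0 CPM in cisplatin and 407 against 50.9 CPM in vehicle, but 7 of 53 and 6 of 20 interferon-high barcodes held it, 1 of them with 106 of 151 UMIs in cisplatin and 1 with 38 of 97 in vehicle.

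Between the interferon-high cells of the treatments, 137 of 3584 genes were at least 2-fold higher in cisplatin (3.82%) and 225 lower (6.28%), with a median log2 ratio of -0.04. TMM scaling turned the split to 213 higher and 148 lower, and median-of-ratios scaling to 236 and 150, so the direction of the split is not fixed by these data. Of 42 measured effectors 9 were higher and 1 lower in the cisplatin cells, with a median of 0.50, while the same genes had a median of -0.09 in the other barcodes. At 3000 UMIs per barcode, where 32 and 8 barcodes met the rule, the median was 0.00, with 2 higher and 6 lower. Without the deepest interferon-high barcode of each library 179 genes were higher and 212 lower, and of 43 effectors 8 were higher and 1 lower, with a median of 0.40. Isg15 was at 2276 CPM in cisplatin and 973 CPM in vehicle interferon-high cells, and Ifit1 at 2919 and 885 CPM. The largest effector difference was in Ifit1bl1, a relative of Ifit1, with 82 UMIs in 20 of 53 cisplatin cells (195 CPM; 155 to 242) and 2 UMIs in 2 of 20 vehicle cells (8.39 CPM; 1.02 to 30.3).

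Some other genes high in the cisplatin cells differed the same way between the other barcodes of the libraries. Meg3, a noncoding RNA, was 5.82 higher on the log2 scale in the interferon-high cells and 4.43 in the others, Pcsk2, a prohormone convertase, 3.02 and 3.54, and Scg2 2.06 and 3.38. The level in interferon-high vehicle cells rests on 1 UMI for Meg3 and 7 for Pcsk2, so the size of their ratios is uncertain. Scgb1a1 and Nupr1 were 2.31 and 2.02 higher in the interferon-high cells and 1.47 and 0.23 in the others, and without the barcode highest in Scgb1a1 of each library its ratio in the others was 0.010. The lowest 6 were Snhg12, Slfn9, Atad2, Klf6, Ccnl1 and Rif1, with log2 ratios from -2.43 to -1.83. In the other barcodes the ratios of these genes were -0.24, -2.07, -0.87, -0.69, -0.20 and -1.01, in the same order. Snhg12, a noncoding RNA, had 14 UMIs in the cisplatin and 44 in the vehicle cells, of which the deepest vehicle barcode held 38, and of the 123 vehicle UMIs of Ccnl1, a cyclin, it held 64. Without the deepest barcode of each library the log2 ratio of cisplatin over vehicle cells was 0.27 for Snhg12, -0.38 for Slfn9 and -1.09 for Ccnl1.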

How the data were processed

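RNA of sorted GFP-positive lung tumour cells was measured in 1 cisplatin and 1 vehicle library, with 5000 cells loaded for each per the labels. The authors deposited UMI counts that had not been normalized, for 28692 genes. The submitters' processing notes name Cell Ranger 2.0.2 and mm10 and give no role for either. Depth was 28777462 UMIs over 4254 barcodes in cisplatin and 32519922 over 3726 in vehicle. The filter of 500 genes and 10% mitochondrial UMIs removed 36 cisplatin and 54 vehicle barcodes. No doublet caller was run. Barcodes with at least 2 markers of 1 of 8 other cell types were left out in an alternative.

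Rows with the same symbol were summed. UMIs were summed over interferon-high and over other barcodes of a library, scaled to CPM by the total UMIs and, after 1 CPM was added, expressed as a log2 ratio. A gene was measured at a mean of 50 CPM and called at 2-fold. Exact 95% intervals were computed by Poisson limits (summed UMIs) or by the Clopper-Pearson method (shares), and a count of 0 was given a limit of 3 counts. Thinning drew 3000 UMIs per barcode (seed 1). The steps were tested on simulated data. The members and gene lists were chosen with earlier results of these data known. Genes were named by a rule: the 12 highest and 8 lowest mean ratios, without mitochondrial, ribosomal protein, haemoglobin, predicted and sex-linked genes, up to 4 genes with the largest ratio of each of 16 lists, a fixed set of interferon, MHC and marker genes, and the 6 highest and 6 lowest ratios of cisplatin over vehicle interferon-high cells at a mean of 100 CPM. Other list members, Iapp among them, were named after their values were seen. An item of the genotype and a few of the named genes are not reported here. Promoter and gene positions come from RefSeq (GRCm38.p6) and GENCODE M21.

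Alternatives changed the filters, the scaling (TMM from edgeR 4.0.16, median of ratios from DESeq2 1.42.0, in R 4.3.3), the weight of cells, pseudocount, floor, fold, number of rule genes, depth and the comparison barcodes. Other steps used Python 3.11.15, numpy 2.4.6, scipy 1.17.1, pandas 2.3.3, Biopython 1.88 and matplotlib 3.10.9.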

Additional observations from a re-analysis of the deposited data

How the results depend on the processing

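No paired analysis was possible because each treatment had 1 library. The share stayed higher in cisplatin than in vehicle, and the effector medians over other barcodes stayed positive, in every alternative run for them, and the medians ranged from 2.74 to 3.56 for the effector median in cisplatin and from 2.21 to 3.43 in vehicle. The interferon-high share was 0.830% in cisplatin and 0.227% in vehicle after thinning, 2.92% and 1.39% with 2 rule genes, and 0.759% and 0.191% with 4. The effector median in cisplatin was 2.86 with 10 CPM added and 2.74 without a floor. In vehicle it was 3.20 with 4 rule genes and 3.43 after thinning. Over the effectors already at 50 CPM or more in the other barcodes the medians were lower, 2.35 in cisplatin and 1.48 in vehicle.

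Genes higher and lower in interferon-high barcodes numbered 991 and 1985 in cisplatin and 1378 and 2578 in vehicle without a floor, and 69 and 13 in cisplatin and 72 and 4 in vehicle at a mean of 100 CPM. They numbered 198 and 155 in cisplatin and 789 and 387 in vehicle after thinning, and 234 and 166 in cisplatin and 419 and 206 in vehicle at 1.5-fold. At 3-fold there were 7 lower in cisplatin, and 70 higher and 6 lower in vehicle. With 4 rule genes there were 62 lower in cisplatin and 281 higher and 178 lower in vehicle, with 10 CPM added 22 lower in cisplatin, and against barcodes nearest in depth 56 lower in vehicle. Fewer UMIs enter after thinning and with 4 rule genes.

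Cisplatin over vehicle interferon-high cells gave 213 higher and 148 lower under TMM and 236 higher under median of ratios. The median of all genes was then 0.12 and 0.14, and that of the effectors 0.65 and 0.67. After thinning, an alternative chosen after seeing the data, 419 were higher and 812 lower and the effector median was 0.00, and the cause was not tested.

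The log2 ratio of 6 genes in vehicle turned negative in some alternatives. With 4 rule genes it was -0.055 for Ccne2, -1.47 for Mcm7, -0.59 for Mcm3, -1.15 for Snhg12 and -0.029 for Ccnl1. After thinning it was -6.78 for Ccne2, -0.25 for Mcm7, -6.61 for Mcm3, -5.70 for Snhg12 and -1.04 for Ccnl1. Thinning left 8 vehicle barcodes that met the rule. The thinned values of Ccne2, Mcm3 and Snhg12 are those of genes without a UMI in the interferon-high cells. Their size is set by the added 1 CPM and does not measure a drop. Without barcodes above the 99th percentile of UMIs the log2 ratio was -1.06 for Ccne2, -0.28 for Mcm7, -0.031 for Mcm3, -1.05 for Snhg12 and -0.042 for Slfn9. Without the deepest interferon-high barcode it was -0.79 for Ccne2, -0.082 for Mcm7, -0.95 for Snhg12 and -0.12 for Slfn9. Leaving out the deepest barcode, leaving out the barcode highest in Scgb1a1, counting Ifit3 and Ifit3b as 1 gene and adding the interval to the 2-fold limit were chosen after seeing the data. Over the 150 ratios of named genes, 1918 of 2250 values moved by less than the counting interval, 313 moved further and 19 changed sign. Depth, 420000 UMIs in the interferon-high cells of cisplatin and 238363 in those of vehicle, limits what can be seen in low genes such as Ifnar1, Ifnar2 and Ifngr1.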
